A study of Rattus norvegicus with 24 samples.

Results

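The hormone genes of the anterior pituitary were examined in a rat array series as 8 genes: growth hormone (Gh1), prolactin (Prl), the beta subunits of thyrotropin (Tshb), luteinizing hormone (Lhb) and follicle-stimulating hormone (Fshb), their common alpha subunit (Cga), and the receptors for growth hormone-releasing hormone (Ghrhr) and thyrotropin-releasing hormone (Trhr). Members were the probe sets for which the array annotation gives a single gene symbol and that symbol is among these 8, with no filter on intensity. This gave 12 of 31042 probe sets and 8 of 14217 genes. Lhb, Cga, Gh1, Prl and Tshb each had 1 probe set, Fshb and Ghrhr had 2 and Trhr had 3. The values of a gene are those of its probe set with the highest mean, and the others are given beside it.

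The series comprised 24 Affymetrix Rat 230 2.0 arrays, each hybridised with RNA of 5 pooled male rats aged 10 to 13 weeks, except that NIL pool 2 was labelled 10 to 12 weeks. The spontaneously hypertensive rat (SHR), an inbred strain with genetic hypertension, gave 5 pools from the pituitary's neurointermediate lobe (NIL). It also gave 5 pools from a hypothalamic region, the paraventricular nucleus (PVN), 4 from another, the supraoptic nucleus (SON), and 5 from a brainstem region, the rostral ventrolateral medulla (RVLM). The normotensive Wistar-Kyoto rat (WKY) gave 5 pools of the RVLM, and other WKY tissue was not analysed here. No animal was treated, per the labels, and n counts pools throughout.

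The anterior lobe holds endocrine cell types named for their hormones: somatotrophs make growth hormone, lactotrophs prolactin, thyrotrophs thyrotropin, gonadotrophs luteinizing and follicle-stimulating hormone, and corticotrophs make hormones cut from proopiomelanocortin (Pomc). The glycoprotein hormones (thyrotropin, luteinizing hormone and follicle-stimulating hormone) each pair the shared alpha subunit with their own beta subunit. Hypothalamic releasing hormones act on the anterior lobe through receptors such as Ghrhr on somatotrophs and Trhr on thyrotrophs and lactotrophs. The neurointermediate lobe lies against the anterior lobe and is made of the intermediate lobe, whose melanotrophs also process Pomc, and the neural lobe, which holds pituicyte glia and the axon terminals of vasopressin and oxytocin neurons.

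Values are the deposited linear intensity in arbitrary units. Array medians lay between 35.9 and 46.5. The mean rank correlation of an array with the others of its group was 0.956 to 0.966 in the NIL, and the array labelled PVN 3 stood apart with 0.912 against 0.938 to 0.955 for the other PVN arrays. On that array 6 fibroblast and meningeal markers summed to 8095, against 442 to 659 on the other PVN arrays and 6440 to 9614 on the SON arrays. The NIL label was borne out by its melanotroph markers: all 4 on the array were higher than in the brain structures, where 29.4% of all genes were called higher and 25% lower. Of 8 pituicyte markers 5 were higher and 2 lower, the higher ones including Rax at 408 against 8.09 and Scn7a at 2636 against 113. As a sum these 8 were not set apart: 6065 to 7028 in the NIL, 6382 to 7654 in the PVN, 6617 to 8124 in the SON and 5433 to 6974 in the SHR RVLM. Vasopressin (Avp) and oxytocin (Oxt) averaged 4453 and 4118 in the PVN and 5056 and 4513 in the SON. The lists held no marker particular to the RVLM.

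Promoters of Gh1, Prl and Tshb were planned, and those of Lhb and Cga were added. The 4 hormone genes with a match among these are shown, and all were high in the NIL and varied from pool to pool. RefSeq promoter sequences on build GRCr8 were matched for 5 of the 8 genes, which left Gh1, Fshb and Trhr unmatched. Each sequence is the 250 bases before a transcription start in that table, 5′ to 3′ on the gene's strand. Capitals mark ATGNATA, the core of the motif bound by the pituitary factor POU1F1 (searched on both strands), and TATAAA, a form of the TATA box (searched on the gene's strand). The windows are chr17:38298218-38298467 (minus strand) for Prl, chr2:192918055-192918304 (minus strand) for Tshb, chr1:105037207-105037456 (plus strand) for Lhb and chr5:54283090-54283339 (plus strand) for Cga.
Prl: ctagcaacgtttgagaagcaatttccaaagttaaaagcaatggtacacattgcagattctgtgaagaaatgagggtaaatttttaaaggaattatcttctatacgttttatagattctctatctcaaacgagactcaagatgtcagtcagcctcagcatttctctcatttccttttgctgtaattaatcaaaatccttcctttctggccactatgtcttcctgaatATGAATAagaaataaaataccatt
Tshb: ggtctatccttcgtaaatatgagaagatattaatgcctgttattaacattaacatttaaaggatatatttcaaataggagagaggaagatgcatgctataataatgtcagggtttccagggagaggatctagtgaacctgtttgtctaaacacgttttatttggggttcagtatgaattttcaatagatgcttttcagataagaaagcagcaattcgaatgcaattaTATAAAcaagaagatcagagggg
Lhb: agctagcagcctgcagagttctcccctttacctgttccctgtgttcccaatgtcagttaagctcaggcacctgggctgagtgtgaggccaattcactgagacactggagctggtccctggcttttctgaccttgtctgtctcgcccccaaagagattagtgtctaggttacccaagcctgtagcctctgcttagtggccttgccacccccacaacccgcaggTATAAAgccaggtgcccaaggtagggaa
Cga: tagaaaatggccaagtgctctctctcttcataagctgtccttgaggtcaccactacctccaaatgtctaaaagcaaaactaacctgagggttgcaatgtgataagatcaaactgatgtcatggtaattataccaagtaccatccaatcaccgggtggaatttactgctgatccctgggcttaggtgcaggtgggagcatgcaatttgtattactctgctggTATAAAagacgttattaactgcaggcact
Among these windows ATGNATA occurred only in that of Prl, as ATGAATA starting 24 bases before the start, and 8.73% of 33469 rat promoter windows of the same length hold it. TATAAA started 23, 28 and 29 bases before the start in Tshb, Lhb and Cga, and 8.06% of the windows hold it. The 2 matched windows of Ghrhr held neither. Of the 2 windows of Lhb the one shown ends at the start of the RefSeq gene, as does that of Tshb. The windows of Prl and Cga precede other transcription starts. Their RefSeq genes begin within the window, at 38298234 (minus strand) and 54283109 (plus strand), so most of the Cga window lies inside the RefSeq gene. A match describes these letters only.

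All 6 hormone genes were measured well above the other structures in the NIL, and Tshb, Prl and Gh1 had the 3 largest SDs of log2(intensity + 16) over the 5 NIL pools among probe sets above the 40th percentile of NIL signal. By the log2 range between pools, Grm8 (3.32) came before Gh1 (3.13), and without pool 5 the SD of Gh1 was exceeded by 23 probe sets. Gh1 had intensities of 5471, 6068, 2957, 2494 and 693 in NIL pools 1 to 5. The first pair of pools was high, pools 3 and 4 lay between, and pool 5 was low. The highest pool was 8.75 times the lowest. Gh1 was the brightest probe set of the whole array in pools 1 and 2, and whether the signal had reached a ceiling there was not tested.

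Prl, the lactotroph hormone, had intensities of 2586, 3677, 331, 523 and 190 in pools 1 to 5. The same pair stood above the others, here by a wide gap, and pool 5 was again lowest. The highest pool was 19.3 times the lowest. Pool 1 exceeded pool 3 by 7.80 times in Prl and by 1.85 times in Gh1, so that the 2 genes shared the high and low pools but not the size of the steps.

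Tshb, the subunit that gives thyrotropin its identity, had intensities of 298, 2577, 233, 334 and 52.9. Pool 2 alone was high, 7.72 times the next pool, while pools 1, 3 and 4 lay close together and pool 5 was lowest. The highest pool was 48.8 times the lowest.

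The subunits made by gonadotrophs varied less. Lhb had intensities of 606, 471, 276, 400 and 221, and Fshb of 224, 212, 148, 140 and 145. Pools 1 and 2 were the 2 highest for both genes. Pool 5 was lowest for Lhb, and pools 3, 4 and 5 were alike for Fshb. The other Fshb probe set read 123, 140, 78.9, 73.2 and 66.1, with the same 2 pools highest and pool 5 lowest.

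Cga, whose product is shared by thyrotrophs and gonadotrophs, had intensities of 2594, 3649, 1899, 1846.5 and 1644. Pool 2 was highest and pool 1 next, and pools 3 to 5 lay close together. The highest pool was 2.22 times the lowest, against 48.8 times for Tshb, its partner in thyrotropin, and 2.74 times for Lhb.

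**Figure D1:**
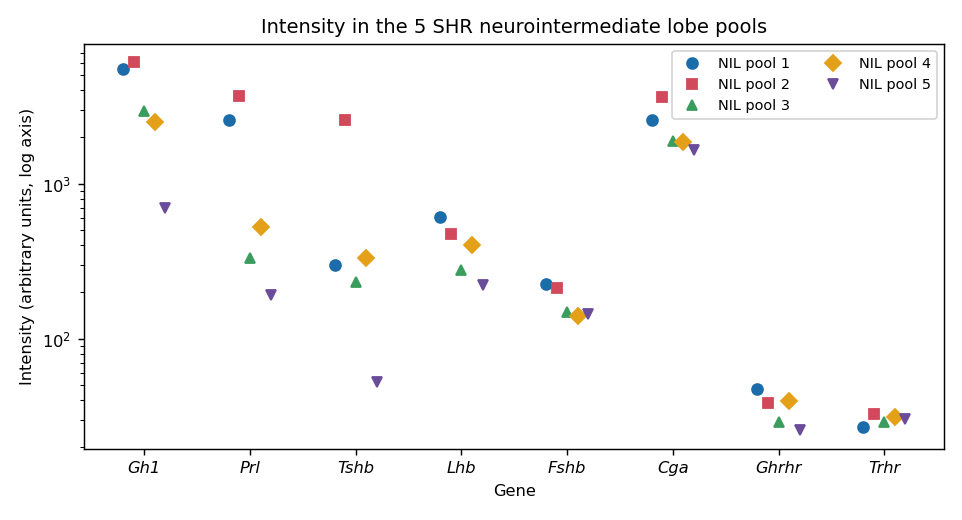
Deposited intensity (arbitrary units, log axis) of each of the 8 genes in the 5 SHR neurointermediate lobe pools, 1 marker per pool. Pools 1 and 2 lie highest for Gh1, Prl, Lhb, Fshb and Cga, pool 2 alone is high for Tshb, and pool 5 is lowest for all 6 hormones except Fshb.

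The 2 receptor genes were dim in the NIL. Ghrhr had intensities of 47.6, 38.5, 29.1, 39.7 and 25.6 in pools 1 to 5, below the array median in 4 of 5 pools. Its other probe set read 24.1, 31.5, 23.4, 43.4 and 15.6. Trhr had intensities of 26.9, 32.7, 29.1, 31.3 and 30.6, below the median in every pool and with little spread. The other Trhr probe sets read at most 11.7 in the NIL.

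The hormone genes shared much of their order over the pools. Pools 1 and 2 were the 2 highest for 5 of the 6 hormone genes, where 10.5% of 10524 genes with a NIL mean above the 40th percentile have that pair on top. Among the 125 of these genes with a range of at least 1 between pools on the log2 scale, the share was 13.6%. Pool 5 was lowest for 5 of the 6 hormone genes, against 18.5% of the 10524 genes. With 5 pools no correlation was computed, and these shares describe the pools without a test. The hormone genes were read from the same 5 RNA pools, so they are not independent observations. In a homogenised lobe, fewer cells of a type and less RNA per cell cannot be told apart.

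The size of the spread was set against all probe sets by the SD of log2(intensity + 16) over the NIL pools. Over 18625 probe sets above the 40th percentile the median SD was 0.15 and the 95th percentile 0.32. Tshb had the largest SD of all (1.88), Prl the second (1.85) and Gh1 the third (1.26). Lhb had an SD of 0.57, exceeded by 45 probe sets, and Cga of 0.49, exceeded by 105. Fshb had an SD of 0.34 and Ghrhr of 0.25, exceeded by 690 and 2440. Trhr lay at the other end with 0.06, exceeded by 18091 probe sets.

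Single pools carried part of this spread. Without NIL pool 2 the SD of Tshb was 1.08, with 4 probe sets above it, and that of Cga was 0.32, with 980 above it. Without NIL pool 5 the SD of Gh1 was 0.68, with 23 probe sets above it. Prl kept an SD of 1.60 to 2.09 whichever pool was left out, and at most 1 probe set exceeded it. Without pool 2 the SD of Trhr was 0.03.

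**Figure D2:**
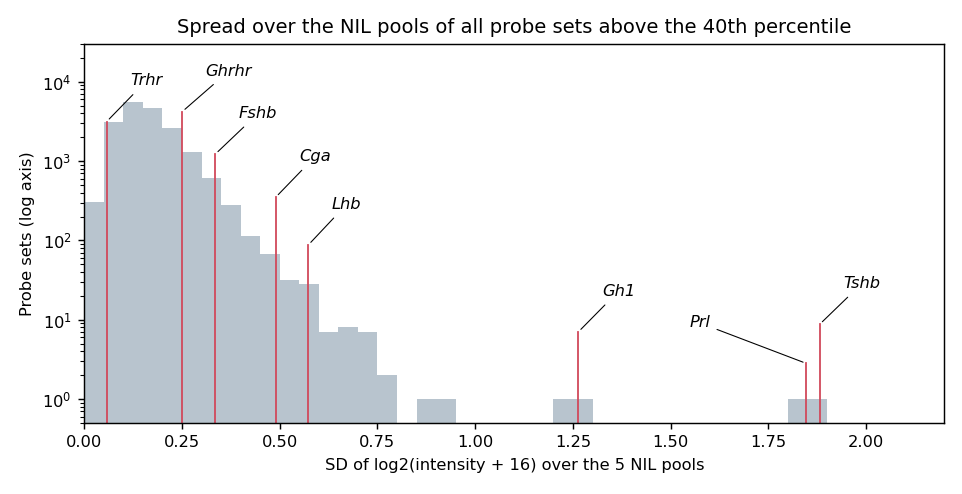
Histogram of the SD of log2(intensity + 16) over the 5 neurointermediate lobe pools for 18625 probe sets (x axis, log2 units; y axis, number of probe sets, log scale), with red lines at the 8 genes. Tshb at 1.88, Prl at 1.85 and Gh1 at 1.26 lie to the right of nearly all probe sets, and Trhr at 0.06 lies near the left end.

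The summed intensity of the members moved more between the pools than that of any of the marker lists. The 8 members summed to an intensity of 11854, 16726, 5902, 5809 and 3002 in pools 1 to 5, a ratio of 5.57 between highest and lowest, and Gh1, Prl, Tshb and Cga make up most of that sum. Single markers moved as much as the less variable members: Col1a1, a fibroblast collagen, ran from 82.5 to 179.6 and Cldn5, an endothelial tight junction gene, from 25.3 to 54.4. The 4 melanotroph markers on the array (Pomc, Pcsk2, Tbx19 and Drd2) summed to 2517 to 3619, a ratio of 1.44. Pomc itself read 806, 687, 993, 1243 and 611, with pool 4 highest, and so did not follow the order of Gh1. The corresponding ratio was 1.12 for 6 neuronal markers, 1.16 for 8 pituicyte markers, 1.17 for 5 endothelial markers, 1.11 for 4 folliculostellate markers and 1.24 for 6 fibroblast and meningeal markers. The 2 red blood cell markers, Hbb and Alas2, summed to 2850 in pool 1 and 4727 in pool 2, which are the lowest and the highest of the 5 pools. The 4 myelin markers summed to 95.7 to 124.

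Markers of the anterior lobe cells other than the hormones were few and dim. Pou1f1, the lineage factor of somatotrophs, lactotrophs and thyrotrophs, read 50.5, 78.7, 7.34, 5.83 and 0.711 in pools 1 to 5. Pools 1 and 2 were high and the order of the 5 pools was that of Gh1. Its values in pools 3, 4 and 5 lay within the range of the 14 SHR brain arrays, which was 0.505 to 13.0. The other lactotroph and somatotroph markers on the array (Ghsr, Esr1 and Sstr2) did not pass the test against the brain structures, and Esr1 read at most 7.82 in the NIL. With Pou1f1 they summed to 108, 158, 67.2, 82.9 and 96.1. The gonadotroph markers Gnrhr, Nr5a1, Foxl2 and Gata2 summed to 178 to 233, a ratio of 1.31 between pools. Gnrhr read 40.2 to 61.3 against at most 19.5 on the SHR brain arrays, while the ranges of the others overlapped those arrays. Corticotrophs share Pomc and Tbx19 with melanotrophs, and their 3 markers on the array, with Avpr1b, summed to 1153 to 1833. Avpr1b alone read 51.5 to 96.8, against at most 33.1 on the SHR brain arrays. Whether the amount of anterior lobe tissue differed between the dissected pools was not tested.

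**Figure D3:**
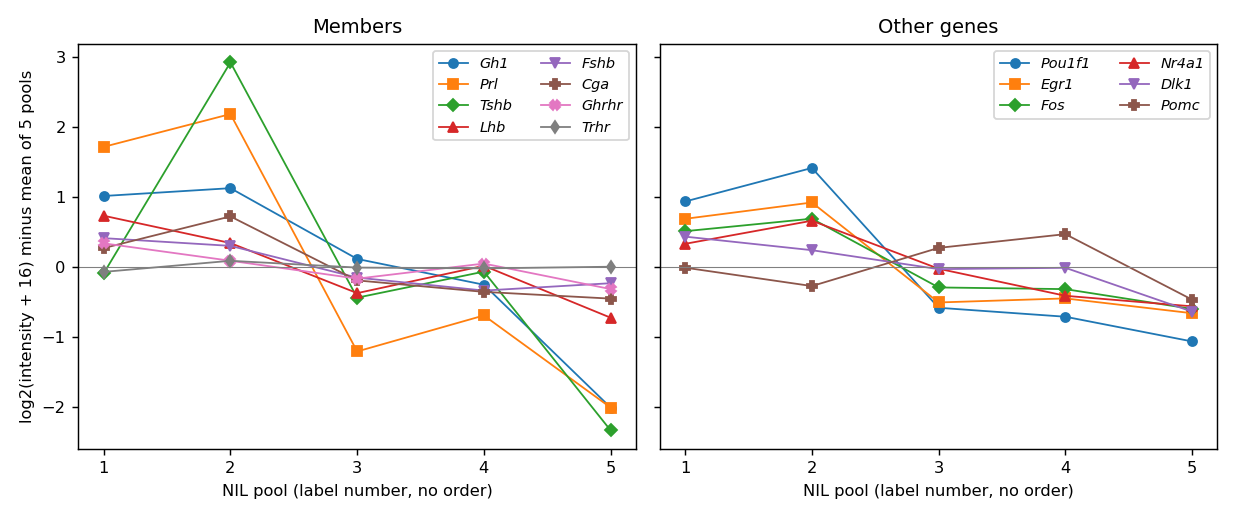
log2(intensity + 16) minus the mean of the 5 neurointermediate lobe pools (y axis) in each pool (x axis; pool numbers have no order, and lines only join the points of a gene), for the 8 members at left and for 6 other genes at right. Pools 1 and 2 lie above the mean for Gh1, Prl, Lhb, Fshb, Cga, Pou1f1, Egr1, Fos, Nr4a1 and Dlk1, Tshb is above it in pool 2 only, and Pomc is highest in pool 4.

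Genes that followed Gh1 or Prl over the pools were sought among 120 genes with a NIL mean above the 40th percentile and a range of at least 1 on the log2 scale. Likeness was the root mean square difference between the profiles, each centred on its mean over the 5 pools. The 10 nearest to Gh1 were Taok3, Egr1, Fos, Adhfe1, Rpusd1, Nr4a1, Htatsf1, Dlk1, Nr4a3 and Ap5s1, with differences of 0.67 to 0.81, where a flat profile is 1.13 away. Lhb, at 0.73, and Cga, at 0.80, were as near as these, and Prl was 0.84 and Tshb 0.99 away. The 10 nearest to Prl were Egr1, Fos, Htatsf1, Nr4a1, Taok3, Slc5a3, Nr4a3, Col24a1, Dlk1 and Rpusd1, with 1.00 to 1.36, where a flat profile is 1.65 away. Gh1 was nearer to Prl than any of them.

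Among the listed nearest genes, Egr1, which encodes a zinc finger transcription factor, read 492, 596, 208, 237 and 193 in pools 1 to 5. Fos, which encodes a subunit of the AP-1 transcription factor, read 132, 156, 69.8, 74.6 and 55.4. Both had pools 1 and 2 on top and pool 5 lowest. Their highest pool was 3.10 and 2.82 times their lowest, well short of the 19.3 times of Prl. Nr4a1, an orphan nuclear receptor, read 260, 339, 202, 164 and 139, in the same order of pools as Gh1. Among the genes nearest to Gh1, Adhfe1 was highest in pool 4 (48.8) and Ap5s1 in pool 3 (54.2). In Taok3 pool 3 (41.7) exceeded pool 1 (37.5). Pool 5 was lowest for each of them. The other listed genes had pools 1 and 2 on top. These likenesses rest on 5 pools and describe them without a test.

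In the comparison of the NIL with the mean of the PVN, SON and RVLM, 6 of the 8 genes were higher in the NIL, Trhr was lower and Ghrhr did not pass the test. In that contrast 29.4% of all genes were called higher and 25% lower, at an adjusted p under 0.05 in limma. Gh1, Cga, Prl and Tshb were among 38 genes, 0.267% of all, that were called higher by at least 3 on the log2 scale. For 7 of the 8 genes no NIL pool overlapped any of the 14 SHR brain arrays, where 14.1% of all genes were higher without overlap and 10.1% lower. The median difference over the 8 genes was 2.90, against 0.02 over all genes.

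Gh1 ranged from 4.10 to 37.7 on the 14 brain arrays, so that even NIL pool 5, at 693, lay far above them. The difference of Gh1 was 6.38 ± 0.31 (SE) on the log2(intensity + 16) scale, adjusted p = 1.76e-13 in limma. Prl ranged from 0.788 to 7.504 on the brain arrays, and the difference was 5.41 ± 0.43, adjusted p = 6.26e-10. The pseudocount of 16 holds this value down: without it the Prl difference was 8.39. Tshb ranged from 5.12 to 24.1 there and differed by 3.47 ± 0.44, adjusted p = 9.82e-07, with the lowest NIL pool at 52.9. These SEs rest on a spread estimate shared by the SHR structures. The SD over the NIL pools was 1.26 for Gh1, 1.85 for Prl and 1.88 for Tshb, far above that in the brain structures. For these genes the SEs and limma p-values therefore understate the uncertainty of the NIL mean.

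Cga was 4.55 to 37.0 on the brain arrays and differed by 5.77 ± 0.19, adjusted p = 2.66e-16. Its NIL pools were all high and spread less than those of Gh1, Prl and Tshb. Its SD of 0.49 was exceeded by only 105 of 18625 probe sets, and its SD of 0.32 without pool 2 by 980. Its SE was the smallest of the 4 genes with a difference above 3. Lhb differed by 2.32 ± 0.20, adjusted p = 1.82e-09, and Fshb by 1.73 ± 0.13, adjusted p = 4.23e-10. Lhb was not uniformly dim in the brain and exceeded the array median on 11 of the 14 brain arrays. Fshb did so on 6 by its brighter probe set and on 0 by the other, which read at most 19.7 there. Gh1, Prl, Tshb and Cga did so on none. The other Fshb probe set differed by 1.87. By an exact two-sided permutation test over the 19 SHR arrays, each of these 6 genes and Trhr reached p = 8.6e-05. That is the smallest the test can give. It restates the lack of overlap between the groups and is no further evidence.

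**Figure D4:**
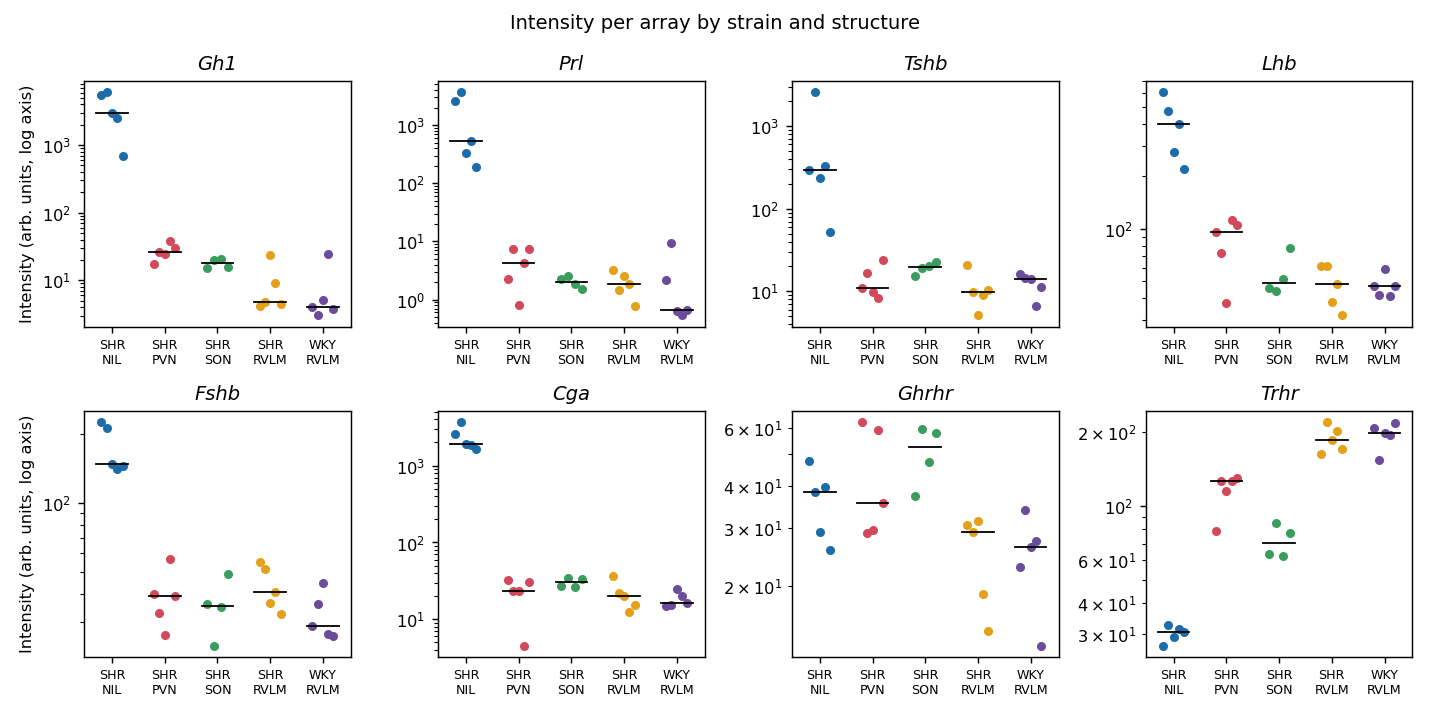
Deposited intensity (arbitrary units, log axes that differ between panels) of each gene on every array, by strain and structure, with a horizontal line at the group median. The 5 neurointermediate lobe points lie above all others for the 6 hormone genes and below all others for Trhr, and they overlap the other groups for Ghrhr.

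The same 6 genes were called higher and Trhr lower against each brain structure taken alone. Genes called higher made up 24.6% against the PVN, 22.2% against the SON and 31.8% against the RVLM, and those called lower 22.4%, 19.8% and 25%. The 3 comparisons share the NIL pools and are not independent. The difference of Gh1 was 6.004 against the PVN, 6.35 against the SON and 6.79 against the RVLM, and that of Prl was 5.30, 5.46 and 5.46. Tshb differed by 3.51, 3.26 and 3.64, and Cga by 5.85, 5.58 and 5.87. Lhb differed by 1.97, 2.46 and 2.54, and Fshb by 1.75, 1.85 and 1.59. The counts were the same without the array labelled PVN 3.

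The receptors did not follow the hormones. Trhr, which couples to Gq and calcium signalling, averaged 30.1 ± 2.23 (SD, n = 5) in the NIL, 72.0 ± 10.8 (n = 4) in the SON, 115 ± 20.8 (n = 5) in the PVN and 187 ± 22.7 (n = 5) in the SHR RVLM. It was the only member above the array median on all 19 arrays outside the NIL. The difference of the NIL from the mean of the 3 structures was -1.55 ± 0.08, adjusted p = 1.00e-12. When the 3 Trhr probe sets were averaged the difference was -0.55, and against the SON it was -0.21 and no longer called (adjusted p = 0.114). The other 2 probe sets lay near the lower end of the array: the brighter read at most 22.3 on any array and was lower in the NIL than in the RVLM by 0.44 (adjusted p = 0.0322), and the dimmer read at most 9.21.

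The order of Trhr between the brain structures was RVLM, PVN, SON, and each neighbour differed. The PVN lay below the RVLM by 0.69 on the log2 scale (difference -0.69, adjusted p = 1.59e-05) and above the SON by 0.58 (adjusted p = 0.00156), though PVN array 1, at 79.1, fell within the SON range of 62.6 to 84.8. With the 3 probe sets averaged the PVN exceeded the SON by 0.30 and was not called (adjusted p = 0.0679). The SON lay below the RVLM (difference -1.28) without overlap.

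Ghrhr, which couples to Gs and cyclic AMP, averaged 50.5 ± 10.3 in the SON, 43.0 ± 16.3 in the PVN, 36.1 ± 8.79 in the NIL and 24.9 ± 7.62 in the SHR RVLM. The NIL differed from the mean of the others by -0.08, with a 95% interval of -0.39 to 0.23 and adjusted p = 0.703. The SON exceeded the RVLM by 0.66 (adjusted p = 0.0119), with SON arrays from 37.3 to 59.3 and RVLM arrays from 14.6 to 31.3. The PVN exceeded the RVLM by 0.48 at adjusted p = 0.0498, a call that was lost in 13 of the 19 fits that left out 1 array, with arrayWeights (adjusted p = 0.101) and with a pseudocount of 64 (adjusted p = 0.0553). The other Ghrhr probe set differed by 0.48 between the SON and the RVLM and was not called (adjusted p = 0.0813).

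Among the brain structures the 6 hormone genes were not called in any of the 3 pairs, in a fit whose spread estimate also takes in the NIL. In these pairs 12% (PVN and SON), 36.6% (PVN and RVLM) and 36.4% (SON and RVLM) of all genes were called. The nearest was Lhb, at 84.9 ± 30.5 in the PVN, 54.7 ± 15.5 in the SON and 48.2 ± 13.3 in the RVLM. The PVN exceeded the RVLM in Lhb by 0.57, with a 95% interval of 0.08 to 1.07 and adjusted p = 0.0735. Without the array labelled PVN 3, whose Lhb was 37.4 against 72.8 to 113 on the others, Lhb was called higher in the PVN than in the RVLM (0.77, adjusted p = 0.00735) and than in the SON (0.69, adjusted p = 0.0462). With all arrays kept, Lhb was also called between the PVN and the RVLM with arrayWeights (adjusted p = 0.0311), once probe sets under the 40th percentile were dropped (0.0482) and with all 24 arrays in the fit (0.0477). Gh1 averaged 27.2 ± 7.51 in the PVN, 17.8 ± 2.80 in the SON and 9.22 ± 8.40 in the RVLM, all below the array median. The PVN exceeded the RVLM in Gh1 by 0.78 (adjusted p = 0.125), and this was called without a pseudocount (1.84, adjusted p = 0.00500) and when NIL pool 5 was left out (adjusted p = 0.0114). For Prl the SD of log2(intensity + 16) was 1.85 in the NIL, 0.20 in the PVN, 0.04 in the SON and 0.08 in the RVLM. With a shared spread estimate the test was therefore blunt between brain structures for Gh1, Prl and Tshb. A missing call there does not show equal levels.

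**Figure D5:**
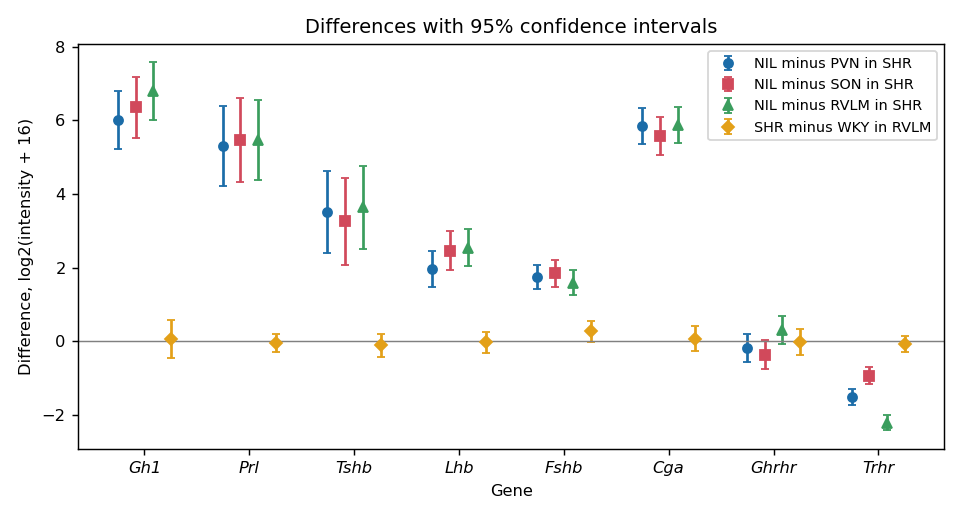
Difference of each gene on the log2(intensity + 16) scale (y axis) with 95% confidence intervals from limma, for the neurointermediate lobe minus each brain structure in SHR and for SHR minus WKY in the RVLM. The 6 hormone genes lie above 0 in all 3 structure comparisons, Trhr below 0, and the strain intervals of all 8 genes include 0.

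The RVLM was the structure with both strains. None of the 8 genes was called there between SHR and WKY in limma, where 0.83% of all genes (118 of 14217) were called. Of the 8 genes 0 had an unadjusted p under 0.05, and 1 of the 12 probe sets did, the dimmest of Trhr. Trhr averaged 187 ± 22.7 in SHR and 194 ± 24.4 in WKY (n = 5 each), and the difference of -0.07 had a 95% interval of -0.30 to 0.16. Fshb averaged 43.3 ± 9.49 in SHR and 32.5 ± 7.80 in WKY, a difference of 0.27 with an interval of -0.01 to 0.55 and an exact two-sided permutation p of 0.0635, where the smallest possible is 0.00794. The widest interval was that of Gh1, from -0.45 to 0.59.

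Other genes of the hormone axes are read against the 29.4% of all genes called higher and 25% called lower in the contrast of the NIL with the mean of the brain structures. Of 10 measured anterior lobe receptors and lineage factors, 4 were higher than the mean of the brain structures and none lower: Avpr1b, the pituitary vasopressin receptor, by 1.44, Gnrhr, the gonadotropin-releasing hormone receptor, by 1.40, Pou1f1 by 0.86 (adjusted p = 0.0123) and Gata2, a factor of gonadotrophs and thyrotrophs, by 0.44. Gnrhr read 61.3, 58.7, 40.2, 45.2 and 42.9 in the NIL pools, with pools 1 and 2 again highest. The median difference of the list was 0.15, and its share called higher was near that of all genes.

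Of 6 measured factors shared by both lobes, 4 were higher in the NIL and none lower, with a median of 1.91. They were Six6 (3.95), the Pomc lineage factor Tbx19 (3.27), Pitx1 (2.50) and Six3 (1.31). Six6 read 386 to 433 over the 5 NIL pools and so stayed nearly level where Gh1 varied 8.75 times.

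Among 7 hypothalamic hormones, Oxt (1.00) and Avp (0.40) were higher in the NIL than in the mean of the brain structures, and somatostatin (Sst, -3.70), corticotropin-releasing hormone (Crh, -2.13) and thyrotropin-releasing hormone (Trh, -1.997) were lower. That mean includes the RVLM: against the PVN alone Avp was lower by 1.89 and Oxt by 1.42 (differences -1.89 and -1.42). Ghrh and Gnrh1 did not pass the test and averaged 19.1 and 18.6 in the NIL. Trh, the ligand of Trhr, averaged 777 in the PVN, 64.02 in the SON and 31.2 in the SHR RVLM, so that its highest structure was not that of Trhr.

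Of 11 measured genes for hormone receptors and for signalling downstream of Ghrhr and Trhr, 1 was higher in the NIL and 4 were lower, where 29.4% and 25% of all genes were called, so the counts are no result about this pathway. Adcy6, an adenylyl cyclase, was higher by 1.48. Plcb1, a phospholipase activated by Gq (-1.39), Prkaca, the catalytic subunit of protein kinase A (-0.87), Gnaq (-0.55) and Gna11 (-0.32) were lower. The growth hormone, prolactin, thyrotropin and luteinizing hormone receptors (Ghr, Prlr, Tshr and Lhcgr) did not pass the test.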

How the data were processed

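RNA of each pool was labelled and hybridised to 1 array, per the labels. The authors deposited 1 linear intensity per probe set and array, made with GCOS 1.2 per the submitters' processing notes. Its settings, like any present or absent calls, were not used here. A 2% trimmed mean of 99.6 to 99.8 was found on every array. The table held 31099 probe sets, of which 57 controls were left out. The annotation table gave 20826 probe sets 1 gene, 436 several and 9780 none, and no probe set with several genes held a member. It names no build, so no probe set coordinates are printed.

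Each array was scaled to the mean of the array medians, and differences were tested on log2(intensity + 16) in limma 3.58.1 (R 4.3.3; lmFit, then eBayes with trend), without a filter. The structure comparisons used the 19 SHR arrays, with a spread estimate per probe set shared by the structures, and the strain comparison the 10 RVLM arrays. P-values were adjusted over 31042 probe sets by Benjamini-Hochberg, and a probe set was called at an adjusted p under 0.05. A pseudocount understates changes of dim genes. The fits were tested on simulated data with the same SD in every group, which does not cover the unequal spread of Gh1, Prl and Tshb. The probe set of a gene with the highest mean over the 24 arrays stood for that gene. Array number limits the precision, and no interval for counting error applies.

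Groups follow the labels, and arrays were numbered by their titles, an unnumbered title being 1. The series text calls the arrays independent replicates; whether the same rats gave several structures is not stated. The members and gene lists were chosen with earlier results of these data known. Named genes were every member by all its probe sets, at most 4 called genes of each list in each direction, list genes a result turned on, and the 10 genes nearest to Gh1 and to Prl over the NIL pools, without placeholder symbols. Promoters came from RefSeq on GRCr8, and those of genes other than Gh1, Prl and Tshb were not in the plan. Alternatives tried were quantile normalization, values as deposited, no pseudocount or one of 64, a filter at the 40th percentile, arrayWeights, eBayes without its trend, a replicate block, all 24 arrays, the mean of a gene's probe sets, an exact permutation test, and each array left out in turn. Ranking the NIL spread with each pool left out was added after seeing the data.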

Additional observations from a re-analysis of the deposited data

Results flagged for a closer look

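Within the 40 sets of 1 gene in 1 group of 4 or 5 arrays, 4 values stood apart from the rest by Dixon's test (95% level), and chance alone sets apart about 1 in 20. Tshb in NIL pool 2, at 2577, was 1 of them, with the next pool at 334 and the lowest at 52.9. Gh1 on SHR RVLM array 3 was 23.8, with the next at 9.03. Gh1 on WKY RVLM array 4 was 24.8, with the next at 5.12. Prl on WKY RVLM array 2 was 9.42, with the next at 2.13. The last 3 values lay below the median of their array.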

How the results depend on the processing

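Of 1795 values of a member in a comparison under another setting, 1740 kept their direction and their side of the threshold. In the 4 comparisons of the NIL, all but 1 did so, Trhr against the SON as the mean of its probe sets (-0.21, adjusted p = 0.114), which left 0 members lower there. The cause of the other changes was not tested. For PVN minus SON, arrayWeights called 4902 probe sets against 2796, leaving out 1 array 1684 (without SON 3) to 4260 (without PVN 3), and members called higher were 0 with the mean of probe sets and 1 to 2 with 1 array left out. For PVN minus RVLM, members called higher were 2 with no pseudocount, the filter, the replicate block or all 24 arrays, 0 with a pseudocount of 64, and 0 to 2 with 1 array left out. Values that changed sign were small and not called. They were Fshb for PVN minus SON (-0.012 with the mean of probe sets), Cga for PVN minus RVLM (-0.12 with no pseudocount), Prl for SON minus RVLM (0.0042 as deposited, 0.078 with no pseudocount), and, for SHR minus WKY, Lhb (0.0020) and Ghrhr (0.0056) as deposited and Prl (0.38 with no pseudocount). With 1 array left out, Fshb for PVN minus SON ran from -0.022 to 0.21, Cga for PVN minus RVLM from -0.10 to 0.25, Prl for SON minus RVLM from -0.028 to 0.020 and Lhb from -0.051 to 0.16. For SHR minus WKY the ranges were -0.052 to 0.16 for Cga, -0.11 to 0.29 for Gh1, -0.088 to 0.064 for Lhb, -0.075 to 0.082 for Prl and -0.12 to 0.077 for Ghrhr.

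Replicate numbers were checked for pairing between SHR structures, and between SHR and WKY in the RVLM, which cannot share rats. As a whole these pairs showed no clear pairing: deviations of same-numbered arrays correlated at -0.15 to 0.19. Of these correlations 3 of 32 exceeded 0.1, against 15 of 128 for different numbers. Between the PVN and the SON, same-numbered arrays correlated at 0.092 to 0.19 and different-numbered ones at -0.24 to 0.21. Whether these structures came from the same rats was not tested. With the number as a replicate block, 176 probe sets were called between the strains against 270, Lhb was called for PVN minus RVLM (0.57, adjusted p = 0.0381), and the NIL comparisons kept 6 members higher and 1 lower. Gh1, Prl, Tshb and Cga lay below the array median on all 19 arrays outside the NIL, and Ghrhr on 14 of them.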
